A study of Mus musculus with 3 samples.

Results

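The 34 genes described here belong to the response to low oxygen and to glycolysis, and they were chosen by name from the 32886 genes of a count table of kidney immune cells. They comprise 7 genes of oxygen sensing (Hif1a, Epas1, Arnt, Vhl, Egln1, Egln2 and Egln3), 3 transporters (Slc2a1, Slc2a3 and Slc16a3) and 14 glycolytic enzymes (Hk1, Hk2, Gpi1, Pfkl, Pfkp, Pfkfb3, Aldoa, Tpi1, Gapdh, Pgk1, Pgam1, Eno1, Pkm and Ldha). A further 4 act on mitochondria (Pdk1, Bnip3, Bnip3l and Higd1a), and 6 are other targets of the pathway (Vegfa, Adm, Mif, Ddit4, Ndrg1 and Ankrd37). All 34 were found in the table. The study separated perfused kidneys of untouched wild type male C57BL/6J mice of 10 weeks into cortex, outer (OM) and inner medulla (IM), sorted the CD45+ cells and sequenced their RNA in droplets. The groups therefore share strain, genotype, sex, age and lack of treatment, and differ in the dissected compartment. Datasets from Aachen, Bonn and Hamburg gave 1 library per compartment each, so that 9 libraries with 20266 cells were compared with the dataset as replicate (n = 3 per compartment).

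Hypoxia-inducible factors are pairs of an oxygen-sensitive alpha subunit, encoded by Hif1a or Epas1, and the stable partner encoded by Arnt. With oxygen present, the prolyl hydroxylases encoded by Egln1, Egln2 and Egln3 modify the alpha subunit, and the ubiquitin ligase subunit Vhl marks it for degradation. When oxygen is scarce the pair binds short DNA cores near its target genes, many of which bring glucose into the cell, run glycolysis, export lactate or remove mitochondria. The renal medulla is known for a low oxygen tension compared with the cortex, which is the setting of the comparison between compartments.

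The genes were chosen by name and not by such cores. Their promoters were searched for the letters ACGTG and GCGTG on both strands within 250 bases before the RefSeq transcription start (build GRCm38.p6). Promoter sequences were at hand for 30 of the 34 genes, the others being Epas1, Slc2a3, Bnip3l and Ndrg1. ACGTG was found for 17 of the 30 genes (56.67%), against 18.49% of all 27025 genes with a promoter sequence. Either core was found for 26 of the 30 (86.67%), against 41.54% of all genes. No match to either core was found in this window for Vhl, Tpi1, Gpi1 and Mif. Both cores hold the letters CG, and the members were not matched to all genes for base content. Nor were they matched for promoters per gene (41 promoters for the 30 members, 32851 for the 27025 genes). A match is a description of these letters and not evidence of binding. Stretches around 1 core each are shown for genes on which the levels and comparisons turn. The capitals mark the core, which reads CACGT where it lies on the opposite strand, and each sequence runs 5′ to 3′ along the gene.
Hif1a (chr12:73907772-73907826, plus strand): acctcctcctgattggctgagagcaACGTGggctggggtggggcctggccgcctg
Slc2a1 (chr4:119108684-119108738, plus strand): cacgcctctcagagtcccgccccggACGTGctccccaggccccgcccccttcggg
Slc16a3 (chr11:120949015-120949066, plus strand): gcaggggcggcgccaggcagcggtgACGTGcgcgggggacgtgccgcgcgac
Hk2 (chr6:82774477-82774531, minus strand): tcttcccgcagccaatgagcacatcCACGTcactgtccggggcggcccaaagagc
Ldha (chr7:46845731-46845785, plus strand): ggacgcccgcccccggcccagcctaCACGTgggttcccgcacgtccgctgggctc
Bnip3 (chr7:138909584-138909638, minus strand): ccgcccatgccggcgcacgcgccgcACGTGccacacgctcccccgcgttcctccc
Ddit4 (chr10:59951928-59951982, minus strand): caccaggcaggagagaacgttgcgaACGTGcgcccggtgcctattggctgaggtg
Eno1, which recurs in the comparison of compartments, held no ACGTG in its 3 promoter windows but held GCGTG on the opposite strand, as in this stretch.
Eno1 (chr4:150237086-150237140, plus strand): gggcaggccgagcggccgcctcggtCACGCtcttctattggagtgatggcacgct

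Libraries held 2122810 to 15267100 unique molecules (UMIs), and the median cell held 744 to 1270 UMIs in the Aachen libraries and 2802 to 3505 in the others. Of 20042 distinct barcodes, 219 occurred in more than 1 library, 29 of them within a dataset. The authors' 23 clusters were joined into 13 classes, among them resident macrophages (5367 cells), T cells (5236), B cells (4358), NK cells (1133), Malat+ macrophages (1043), conventional dendritic cells (cDCs, 971), monocytes (714), Malat+ T cells (430), group 2 innate lymphoid cells (ILC2, 424) and neutrophils (273). Summed markers were highest in the class they name for B cells (41.2 to 93.6 UMIs per 10000 over libraries) and neutrophils (329 to 698.5), but some classes also held markers of others. The 6 resident macrophage markers summed to 171.5 to 253.5 in resident macrophages, and also to 27.1 to 81.4 in neutrophils and 3.50 to 84.3 in Malat+ T cells. The 4 monocyte markers summed to 29.2 to 41.98 in monocytes and to 54.3 in the 1 library of plasmacytoid dendritic cells. The part of macrophage RNA in the levels of neutrophils and Malat+ T cells was not tested. A list of 9 immediate early and heat shock genes, which mark stress during dissociation, ranged from 63.5 to 202 UMIs per 10000 in Aachen, 13.3 to 84.3 in Bonn and 165 to 442 in Hamburg over the classes tested. Its part in the results was not tested.

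The levels of the 34 genes are given as counts per 1000000 UMIs (CPM) of a class in a library, for libraries with at least 20 cells of the class, and 10 classes with at least 4 such libraries were ordered by their median. Since the authors formed the clusters from the genes of the same cells, the order of classes is a description without a test. The carriers of glucose and lactate had their highest medians in neutrophils, but only Slc16a3 lay above all libraries of the class with the second median. The hexokinase isoforms were divided between macrophages, monocytes and cDCs (Hk2) and T cells, NK cells and ILC2 (Hk1). Aldolase and lactate dehydrogenase had their highest median in ILC2. Neutrophils and Malat+ T cells rest on 4 and 5 libraries, of which 3 each come from Hamburg, so that class and dataset cannot be fully told apart for these classes.

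**Figure D1:**
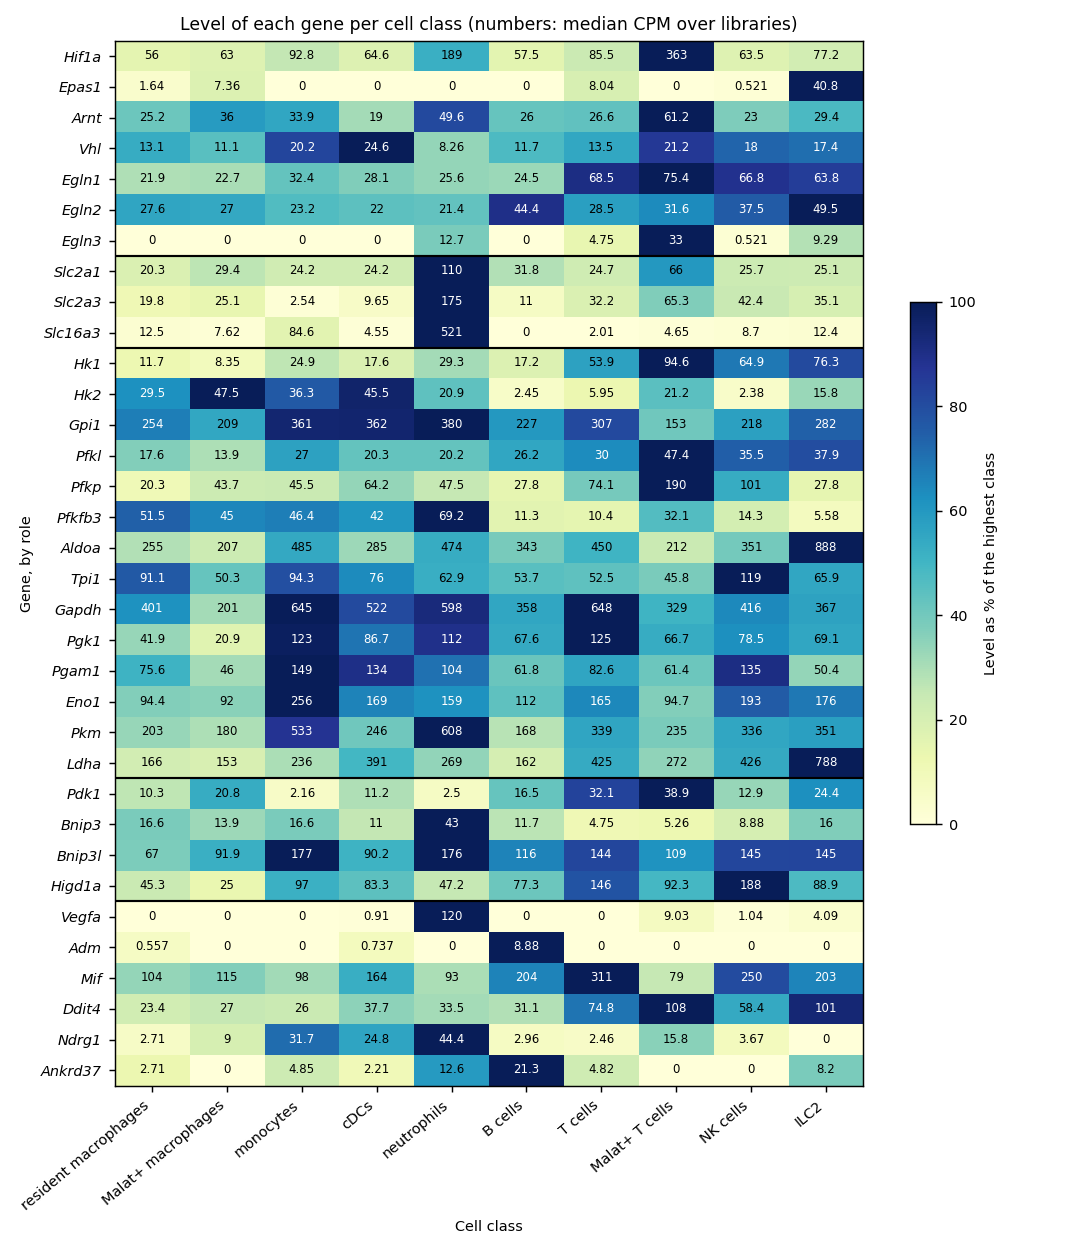
Median CPM of the 34 genes (rows, grouped by role) in 10 classes of immune cells (columns); numbers in the cells are medians over libraries with at least 20 cells of the class, and the colour scales each gene to its own highest class. Slc16a3, Slc2a3, Slc2a1, Vegfa and Bnip3 peak in neutrophils, Hk1 in Malat+ T cells and ILC2, and Ldha and Aldoa in ILC2.

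The oxygen sensing genes differed in how widely they were measured. Hif1a, the alpha subunit found in most cells, had its highest median in Malat+ T cells (363 CPM, 0 to 506 over 5 libraries) and its lowest in resident macrophages (56.0 CPM, 8.84 to 80.2 over 9 libraries). In T cells the Hif1a level was 74.9, 61.7 and 72.5 CPM in Aachen, 85.5, 84.5 and 119.6 in Bonn, and Hamburg had 231, 210.3 and 205 (cortex, OM and IM). The Hamburg libraries were therefore all above the others, whereas no compartment was high or low in all datasets. Among T cell clusters, T_cell_1 held the most Hif1a, with 225.5 CPM over all its cells. A level over all cells of a cluster, here and below, pools the datasets and so also depends on their mix in that cluster.

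Epas1, the alpha subunit better known from endothelium and other non-immune cells, was sparse. Its highest median was 40.8 CPM in ILC2 (0 to 67.6 over 8 libraries, with 0 in 3 of them), followed by 8.04 CPM in T cells (0 to 11.9). In the ILC2 libraries a count of 0 allows 13.7 to 56.6 CPM, so that the zeros do not separate these libraries from the rest. The small cluster T_cell_4 (161 cells) reached 57.3 CPM of Epas1 and 35.3 CPM of Egln3, the hydroxylase that is itself a target of the factor. Egln3 was otherwise near the limit of detection, with a median of 0 CPM in resident macrophages (0 to 0.56), where a count of 0 allows 0.80 to 4.42 CPM. Its median in Malat+ T cells was 33.0 CPM (0 to 54.8).

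Egln1, the main oxygen sensor of most tissues, was higher in T cells, NK cells and ILC2 than in myeloid classes and B cells. Its median was 68.5 CPM in T cells (4.60 to 77.6) and 66.8 in NK cells, against 21.9 in resident macrophages (2.95 to 32.6), 24.5 in B cells and 25.6 in neutrophils. Egln1 lay at 13.1, 11.9 and 4.60 CPM in T cells of the Aachen libraries and at 65.7 to 77.6 CPM in those of Bonn and Hamburg, so that the datasets did not overlap. Egln2, a hydroxylase that is not induced by hypoxia, differed less over the classes, from 21.4 CPM in neutrophils to 49.5 in ILC2 and 44.4 in B cells. Arnt had medians of 19.0 CPM in cDCs to 61.2 in Malat+ T cells. Vhl was highest in cDCs (24.6 CPM, 18.7 to 34.99), which lay above T cells in each of the 9 libraries, and lowest in neutrophils (8.26 CPM).

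All 3 transporters had their highest median in neutrophils. Slc16a3, which exports lactate, had 627 CPM in neutrophils of the Bonn IM library and 337, 449.8 and 593 CPM in those of Hamburg cortex, OM and IM. Monocytes came next with a median of 84.6 CPM (0 to 134.5), below neutrophils in each of the 4 libraries in which both were measured. Resident macrophages held a median of 12.5 CPM (6.60 to 17.6) and B cells of 0 CPM (0 to 2.96), where a count of 0 allows 0.92 to 13.3 CPM.

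Slc2a3, a glucose carrier of high affinity, was also highest in neutrophils, but monocytes were its lowest class. Its median was 175 CPM in neutrophils (125.6 to 197) and 2.54 CPM in monocytes (0 to 23.2), where a count of 0 allows 2.79 to 69.6 CPM. In the 4 libraries with both classes, neutrophils were higher each time, with medians of 175 and 7.04 CPM. Malat+ T cells had the second median of Slc2a3 (65.3 CPM, 0 to 145.8). Neutrophils were above them in 2 of the 3 libraries with both. NK cells (42.4 CPM) and T cells (32.2 CPM) held more of Slc2a3 than cDCs (9.65 CPM). Slc2a1, the carrier of most proliferating cells, reached 110.2 CPM in neutrophils (70.3 to 183) and 20.3 CPM in resident macrophages (5.90 to 29.6), the lowest median of the ordered classes. Malat+ T cells had its second median (66.0 CPM, 0 to 97.8). Neutrophils were above them in only 1 of the 3 libraries with both.

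**Figure D2:**
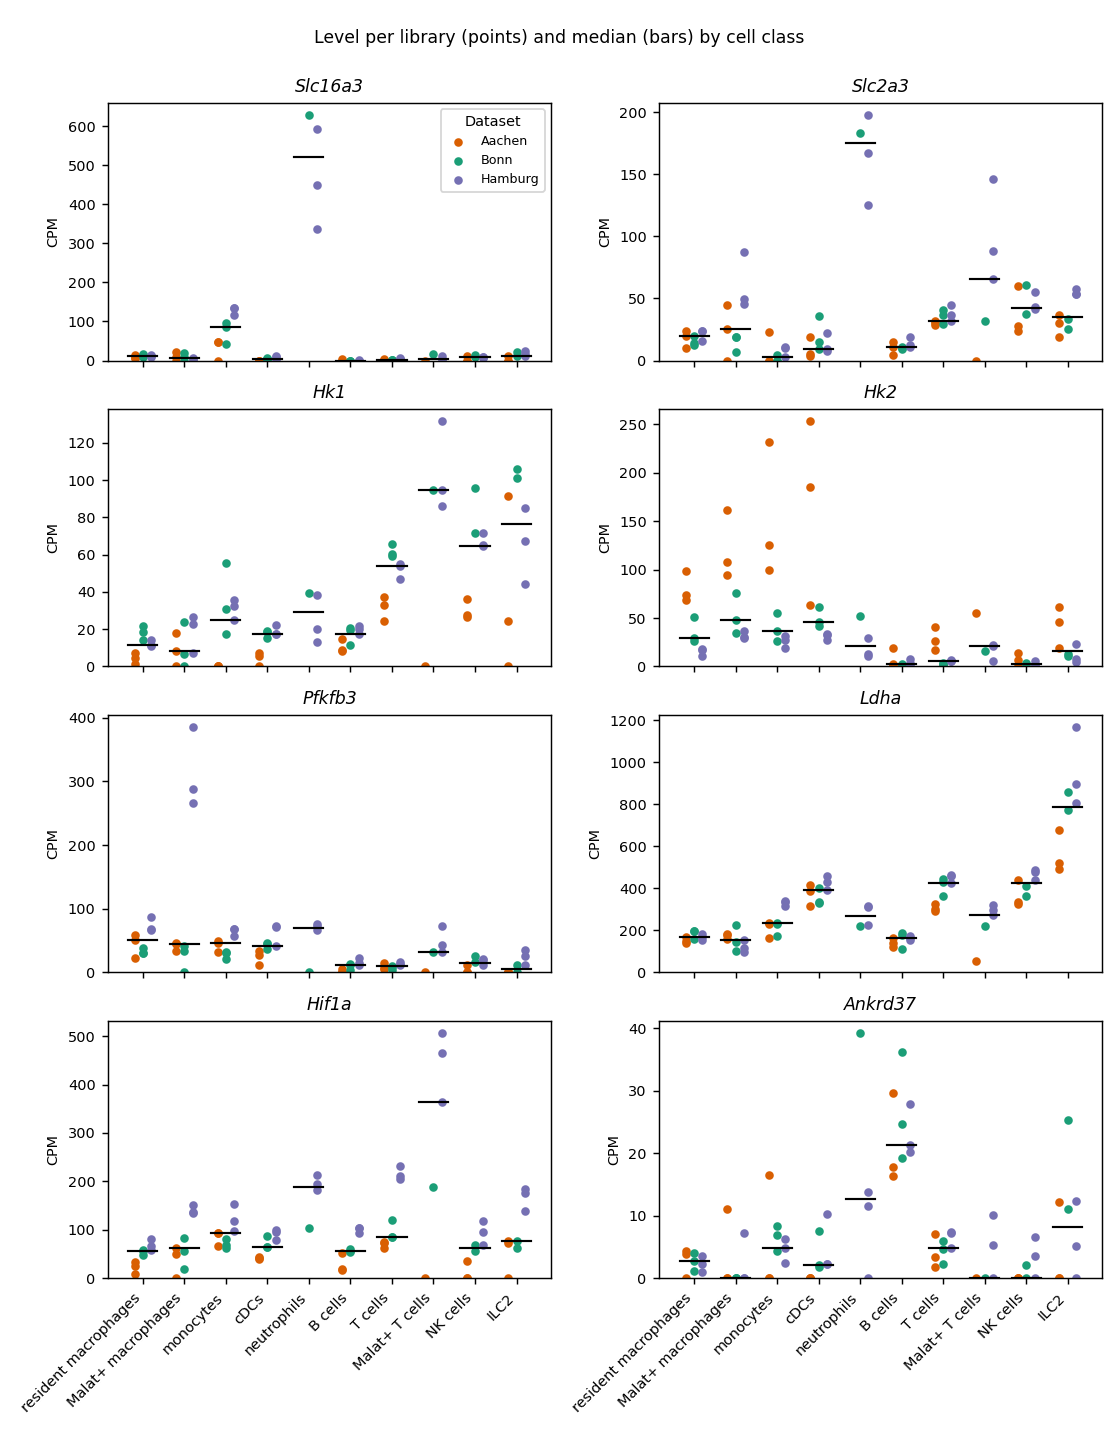
CPM of 8 genes (panels) in each library with at least 20 cells of a class; each point is 1 library, coloured by dataset, and the bar is the median. Slc16a3 is separate in neutrophils, whereas the Slc2a3 points of neutrophils overlap those of Malat+ T cells. Hk1 is higher in T cells, NK cells and ILC2 and Hk2 in macrophages and cDCs, and the Aachen points of Hk2 lie above those of the other datasets.

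Hexokinases carry out the first step of glycolysis, and their isoforms were held by different classes. Hk1 had medians of 94.6 CPM in Malat+ T cells, 76.3 in ILC2, 64.9 in NK cells and 53.9 in T cells, against 11.7 in resident macrophages and 8.35 in Malat+ macrophages. Hk2, the isoform that the HIF pathway induces, had medians of 47.5 CPM in Malat+ macrophages, 45.5 in cDCs, 36.3 in monocytes and 29.5 in resident macrophages, against 5.95 in T cells, 2.45 in B cells and 2.38 in NK cells. Neutrophils did not share this division, with medians of 29.3 CPM of Hk1 and 20.9 CPM of Hk2 over 4 libraries. Resident macrophages had less Hk1 and more Hk2 than T cells in each of 9 libraries. Hk2 of resident macrophages was 68.6, 98.1 and 73.7 CPM in Aachen, 29.5, 51.6 and 25.9 in Bonn, and Hamburg had 11.3, 17.4 and 17.8. Hk2 in T cells was 41.2, 16.6 and 26.5 CPM in Aachen and 1.34 to 7.11 CPM in the other 6 libraries, so that the comparison of classes holds within a library and not across datasets.

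Phosphofructokinase commits glucose to glycolysis. Its platelet isoform Pfkp was highest in Malat+ T cells (189.5 CPM, 0 to 230.4) and NK cells (101 CPM, 20.04 to 132), and lowest in resident macrophages (20.3 CPM, 7.92 to 34.1). The liver isoform Pfkl differed less, from 13.9 CPM in Malat+ macrophages to 47.4 in Malat+ T cells. Pfkfb3, which makes the activator of phosphofructokinase, had medians of 69.2 CPM in neutrophils (0 to 76.4) and 51.5 in resident macrophages (22.9 to 87.6), against 10.4 in T cells and 5.58 in ILC2. Within resident macrophages, Pfkfb3 reached 62.2 CPM over all cells of the interferon-responsive cluster Isg+_Macrophage.

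The remaining steps of glycolysis were led by ILC2, monocytes, T cells, NK cells and neutrophils. Aldoa, which splits the hexose, had a median of 888 CPM in ILC2 (502 to 988) against 485 in monocytes, with ILC2 higher in 8 of 8 libraries. Ldha, which reduces pyruvate to lactate, was 519, 489.8 and 679 CPM in ILC2 of Aachen, 859 and 771 in Bonn cortex and IM, and 806, 898 and 1169 in Hamburg. The lowest of these 8 values lay above the highest of NK cells (487 CPM), the class with the second median of Ldha (426 CPM), and resident macrophages (166 CPM) and Malat+ macrophages (153 CPM) stood at the other end.

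Gapdh had medians of 648 CPM in T cells and 645 in monocytes, with overlapping ranges (410.3 to 870 and 574 to 935), and 201 CPM in Malat+ macrophages. Pgk1 had medians of 125 CPM in T cells (9.50 to 140.5) and 123 in monocytes (46.4 to 167). Within libraries, monocytes were the higher of these classes in 7 of 9 for both genes. Eno1, the enolase of most tissues, and Pgam1, the mutase before it, had their highest medians in monocytes (256 and 149 CPM). Pkm, which makes pyruvate, was highest in neutrophils (608 CPM, 456 to 627) and monocytes (533 CPM, 409 to 696) and lowest in B cells (168 CPM, 120.3 to 187). Gpi1 ranged from 153 CPM in Malat+ T cells to 380.1 in neutrophils and 362 in cDCs, and Tpi1 from 45.8 CPM in Malat+ T cells to 119 in NK cells. Gapdh, Pgk1, Pgam1, Eno1, Aldoa, Ldha, Pkm and Tpi1 have near-identical pseudogene copies, and how the counting divided reads between copies is not known, so that their levels are uncertain.

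Among genes that act on mitochondria, Pdk1, the kinase that keeps pyruvate out of the mitochondrion, was highest in Malat+ T cells (38.9 CPM) and T cells (32.1 CPM, 24.4 to 42.7) and lowest in monocytes (2.16 CPM, 0 to 15.7). Within T cells, cluster T_cell_3 held the most Pdk1 with 65.6 CPM over all its cells. Bnip3, a receptor for the removal of mitochondria, was 39.2 to 66.1 CPM in the 4 libraries of neutrophils, above each library of resident macrophages (10.3 to 20.9) and of T cells (2.30 to 8.51). The lowest neutrophil value equals the upper end of the 8.50 to 39.2 CPM that a count of 0 allows in neutrophils, so that it rests on few UMIs. Its relative Bnip3l did not separate monocytes (177 CPM) from neutrophils (175.5 CPM), and its lowest median was 67.0 CPM in resident macrophages. Higd1a, a small protein of the respiratory chain, had its highest medians in NK cells (188 CPM, 139 to 301) and T cells (146 CPM), with NK cells higher in 8 of 8 libraries, and its lowest in Malat+ macrophages (25.03 CPM).

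The other targets differed between classes, and Vegfa also between datasets. Vegfa, the endothelial growth factor, was 52.3 CPM in neutrophils of the Bonn IM library and 129.7, 110.2 and 131 CPM in those of Hamburg. In NK cells, Vegfa gave 46.5, 60.5 and 78.0 UMIs in Hamburg cortex, OM and IM, which is 69.8, 102.6 and 142.5 CPM, against 2 UMIs in all libraries of Aachen and Bonn together. In monocytes it was 41.8, 33.1 and 80.6 CPM in Hamburg and 0 in the other 6 libraries. In NK cells and monocytes, Vegfa was thus measured almost wholly in 1 dataset. Within Hamburg, the values of NK cells and neutrophils overlapped, so that the highest median in neutrophils does not separate these classes there.

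Adm, which encodes the vasodilator adrenomedullin, was found mainly in B cells (median 8.88 CPM, 0 to 44.6) and reached 31.5 CPM over all cells of the cluster B_cell_2 (352 cells). Ankrd37, a small target whose function is little known, was 16.4 to 36.2 CPM in B cells and 1.87 to 7.36 CPM in T cells, without overlap over the 9 libraries. Ndrg1, a stress response gene, had medians of 44.4 CPM in neutrophils and 31.7 in monocytes and of 0 in ILC2, where a count of 0 allows up to 56.6 CPM. In the Undefined cluster of 69 cells, Ndrg1 reached 876 CPM, Gapdh 1269 CPM and Tpi1 560 CPM. That cluster's library with at least 20 cells held 297 nephron transcripts per 10000 and 0.16 of the leukocyte marker Ptprc. With 1 such library, the cluster did not enter the order of classes. Mif, a cytokine of many cells, was highest in T cells (311 CPM, 239 to 367), and Ddit4, an inhibitor of growth signalling, in Malat+ T cells (108 CPM) and ILC2 (101 CPM), against 23.4 CPM in resident macrophages.

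Resident macrophages were set against T cells and monocytes library by library. Of 30 tested members, 16 (53.33%) were lower in resident macrophages than in T cells in all 9 libraries: Hif1a, Egln1, Slc2a3, Hk1, Pfkp, Aldoa, Gapdh, Pgk1, Eno1, Pkm, Ldha, Pdk1, Bnip3l, Higd1a, Mif and Ddit4. Among all 9548 genes the share was 28.9%. Slc16a3, Hk2, Pfkfb3, Tpi1 and Bnip3 were higher in all 9 libraries, which is 16.67% of the members against 16.1% of all genes. Against monocytes, 12 of 30 members (40%) were lower in all 9 libraries, with 9.91% among all 8398 genes, and no member was higher in all 9, with 8.22% among all genes. These 12 were Hif1a, Gpi1, Pfkl, Aldoa, Gapdh, Pgk1, Pgam1, Eno1, Pkm, Ldha, Bnip3l and Higd1a. Since CPM are shares of a class's UMIs, and the clusters were made from these cells, the counts describe the classes and were not tested.

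The datasets differed for many members, as for many genes. In resident macrophages, 14 of 28 members (50%) had all 3 Aachen libraries below the other 6 in CPM, against 40.4% of all genes, and Hk2, Eno1 and Higd1a (10.71%) had them above, against 7.39%. In T cells, 16 of 28 (57.14%) lay below, against 40.4% of all genes, and Hk2 alone (3.571%) above, against 8.61%. Hk1 in resident macrophages showed the size of such gaps, with 1.32, 7.25 and 4.42 CPM in Aachen, 21.7, 14.3 and 18.7 in Bonn, and Hamburg had 11.7, 14.3 and 11.2. Laboratory and depth per cell differ between these datasets together and cannot be told apart. The comparison of compartments was therefore made within datasets.

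Compartments were compared in the 7 classes with at least 19 cells in each of the 9 libraries: resident macrophages, monocytes, cDCs, NK cells, T cells, B cells and Malat+ macrophages. The question was whether immune cells of the medulla, where oxygen is low, differ from those of the cortex in these genes. Counts were summed per library and class and tested by the quasi-likelihood method of edgeR, with datasets as blocks, Benjamini-Hochberg adjustment over all genes of the class and a threshold of 0.05. The medullary value is the average of the OM and IM coefficients, and differences are on the log2 scale of the fit. The labels do not say that libraries came from separate animals. With datasets as blocks, the p-values measure how much the compartment differences vary between these datasets, and not the spread between animals.

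No member passed the test in any class or contrast by edgeR, and none passed by DESeq2. In total 167 pairs of a gene and a class were tested, with 10 genes tested in all 7 classes and none of the 34 tested in no class. At an unadjusted p under 0.05, edgeR gave 13 of the 167 pairs for medulla against cortex (7.784%, against 6.811% of all tested genes), and DESeq2 gave 2. The counts were 17 for OM against cortex (10.18% against 6.85%, 6 by DESeq2), 6 for IM against cortex (3.593% against 5.022%, 0 by DESeq2) and 7 for OM against IM (4.192% against 3.481%, 2 by DESeq2).

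The share of all genes that passed for medulla against cortex was 1.23% in resident macrophages, 0.312% in monocytes, 1.88% in cDCs, 0% in NK cells, 0.0117% in T cells, 0.0353% in B cells and 0.0706% in Malat+ macrophages. For OM against cortex the shares were 0.826%, 0.238%, 1.11%, 0%, 0.0235%, 0.047% and 0% in the same order, and for IM against cortex 0.0851%, 0.202%, 1.02%, 0%, 0.0235%, 0.0353% and 0%. For OM against IM they were 0%, 0.0917%, 0.0592%, 0%, 0%, 0.0235% and 0%. With so few calls among all genes, 0 of 12 to 28 members is near what the background gives. For medulla against cortex, 39.29% of members in resident macrophages moved 1 way in 3 datasets, against 30.03% of all genes. The shares were 33.33% against 24.18% in monocytes, 34.62% against 33.57% in cDCs and 27.78% against 25.38% in NK cells. T cells had 28.57% against 26.38%, B cells 28.57% against 22.32% and Malat+ macrophages 33.33% against 24.61%. Such agreement was thus frequent among all genes and does not by itself set a member apart.

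The precision bounds what could have been missed. For 143 of the 167 pairs, the 95% interval of the medulla difference lay within 1 log2 unit (2-fold) on either side of 0, among them 27 of 28 members in resident macrophages, 27 of 28 in T cells, 25 of 28 in B cells, 22 of 26 in cDCs and 20 of 27 in monocytes. NK cells gave 15 of 18 and Malat+ macrophages 7 of 12. The median difference of the members was -0.005 in resident macrophages, where all genes had 0.006, and 0.04 in T cells, where all genes had 0.004. It lay between -0.037 (B cells) and 0.13 (Malat+ macrophages) over the 7 classes. Genes left out for low counts were Epas1, Egln3, Vegfa, Adm, Ndrg1 and Ankrd37 in resident macrophages, Slc16a3, Bnip3, Vegfa, Adm, Ndrg1 and Ankrd37 in T cells, and Epas1, Egln3, Slc16a3, Hk2, Vegfa and Ndrg1 in B cells. Monocytes lacked 7 of the 34, cDCs 8, NK cells 16 and Malat+ macrophages 22, so that Epas1, Egln3, Adm and Ankrd37 were each tested in 1 class.

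**Figure D3:**
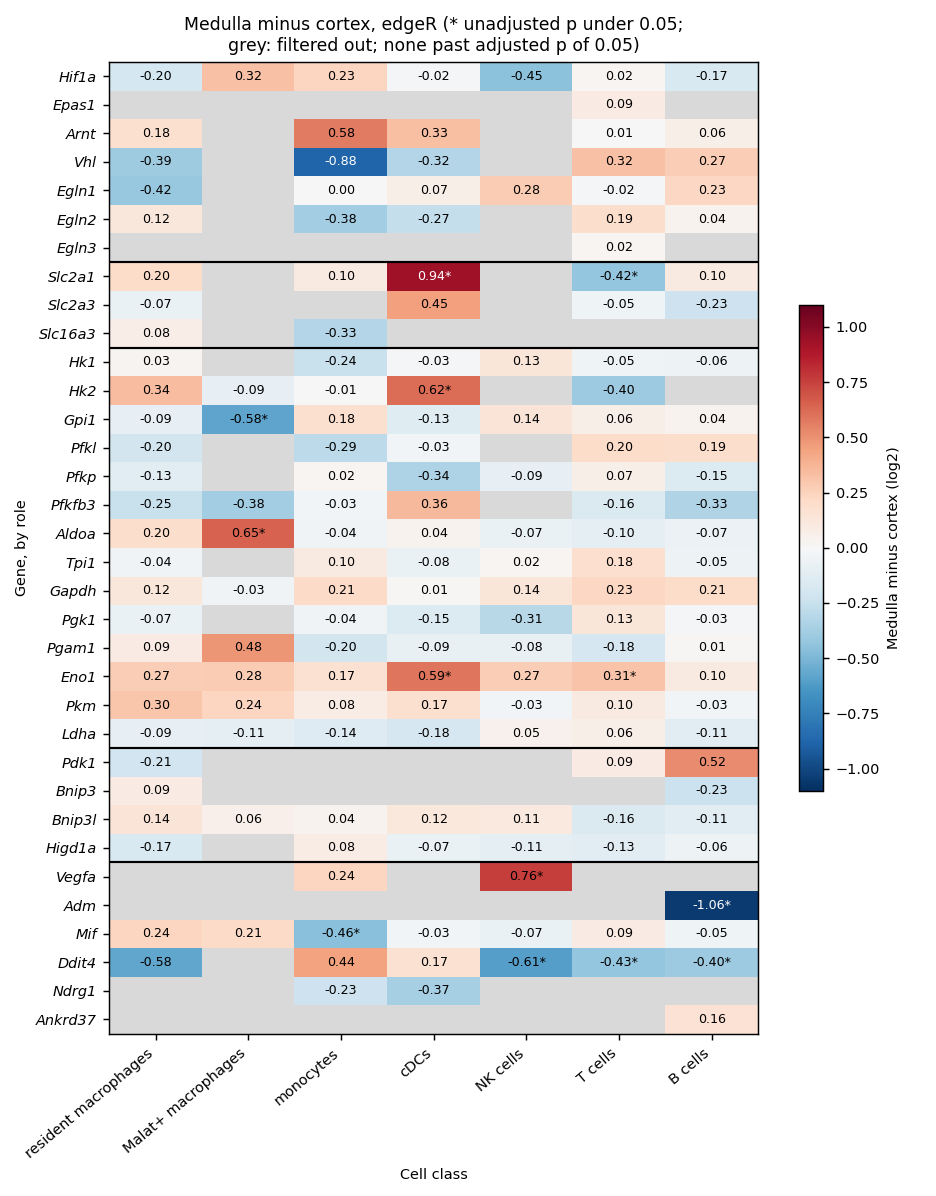
Log2 difference of medulla minus cortex for the 34 genes (rows) in 7 classes (columns); blue is lower and red higher in the medulla, blank cells were not tested, and a star marks an unadjusted p under 0.05 by edgeR. Stars are spread over 13 of 167 cells, and Eno1 is the gene above 0 in every class.

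Eno1 had the lowest adjusted p of all members. In cDCs, its level in cortex, OM and IM was 169, 276 and 180.5 CPM in Aachen, 76.7, 173 and 117 in Bonn, and Hamburg had 115, 147 and 173. Both medullary libraries thus lay above the cortex of their dataset in 3 of 3 datasets, although the groups overlapped when datasets were pooled. The log2 difference was 0.59 ± 0.17 (SE, 95% interval 0.24 to 0.94, adjusted p = 0.085 by edgeR), with 0.37, 0.90 and 0.42 in Aachen, Bonn and Hamburg. For OM against cortex it was 0.71 ± 0.19 (adjusted p = 0.0867 by edgeR).

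The makeup of cDCs moved along with this difference. The 3 cDC1 markers summed to a mean of 5.73 UMIs per 10000 in cortex, 2.92 in OM and 3.71 in IM, and the 3 cDC2 markers to 8.10, 15.5 and 13.6. In the cluster cDC2 alone, the log2 difference of Eno1 was 0.27 ± 0.21 (adjusted p = 0.99 by edgeR), with -0.21, 0.54 and 0.25 by dataset, so that Aachen lay below 0. The part of the mix of cDC1 and cDC2 in the value of all cDCs was not tested beyond this.

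Eno1 was also above 0 in the other 6 classes, with 0.31 ± 0.13 in T cells (0.31, 0.59 and 0.11 by dataset, adjusted p = 0.80 by edgeR), 0.27 ± 0.13 in resident macrophages (0.12, 0.53 and 0.11, adjusted p = 0.498 by edgeR) and 0.28 ± 0.34 in Malat+ macrophages. T cell values of Eno1 were 187, 228 and 222 CPM in Aachen, 96.2, 192 and 108 in Bonn, and Hamburg had 156, 162 and 165. Over the 7 classes the difference ranged from 0.098 to 0.59. Of the 10 members tested in all 7 classes, 1 was above 0 in each, against 2.39% of 1882 genes. The classes of a library share the dissection and the sequencing run, so that they are not separate observations, and the Bonn cortex library was the lowest of its dataset in cDCs, T cells and resident macrophages. Without the Bonn cortex library, an alternative chosen after seeing the data, the differences of Eno1 in these classes were 0.41, 0.19 and 0.12.

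**Figure D4:**
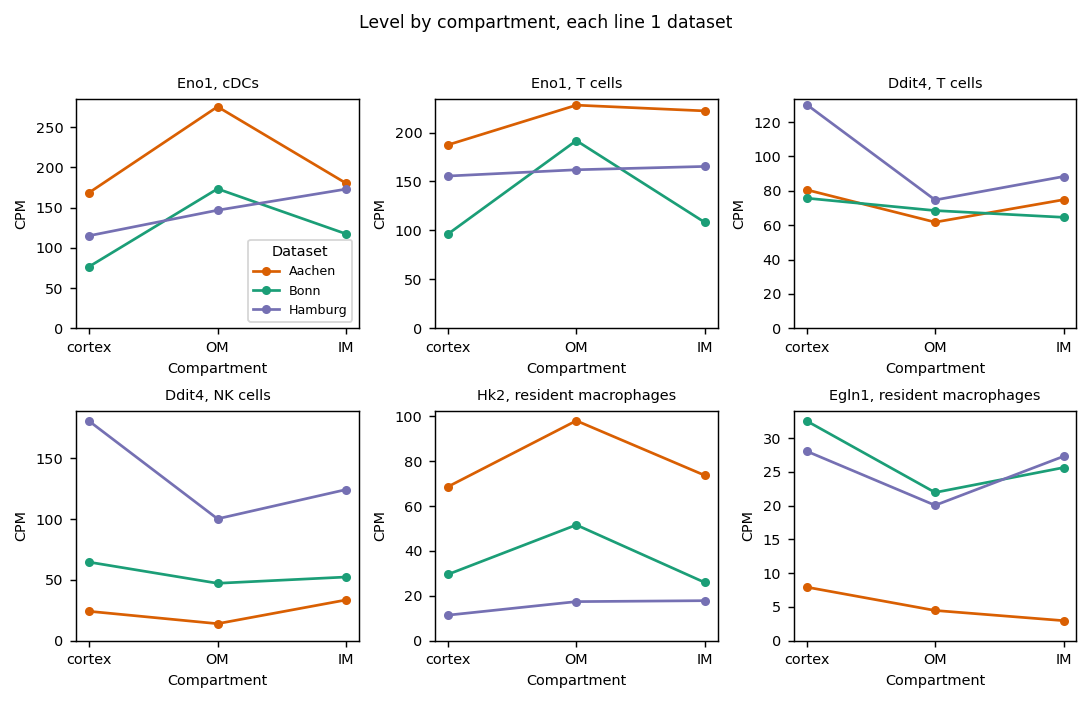
CPM in cortex, OM and IM (x axis) for 6 pairs of a gene and a class (panels), with 1 line per dataset. Eno1 in cDCs lies higher in both medullary compartments of each dataset, Ddit4 in T cells lies lower in both, and in resident macrophages the 3 datasets do not overlap for Hk2, while for Egln1 Aachen lies below the others.

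In resident macrophages, Hk2 had a log2 difference of 0.34 ± 0.17 (95% interval -0.02 to 0.71, adjusted p = 0.529 by edgeR), with 0.32, 0.34 and 0.52 in the 3 datasets. Its OM libraries were the highest of the dataset in Aachen (98.1 CPM) and Bonn (51.6 CPM). Chosen after its values were seen, the difference of OM against cortex was 0.61 ± 0.19 with 0.57, 0.78 and 0.46 by dataset, and it did not pass (adjusted p = 0.202 by edgeR).

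Pkm in resident macrophages had 0.30 ± 0.16 (0.39, 0.30 and 0.13 by dataset). Egln1 had -0.42 ± 0.20 (adjusted p = 0.515 by edgeR), with -0.94, -0.39 and -0.30. Its values were 7.92, 4.46 and 2.95 CPM in Aachen, 32.6, 21.95 and 25.6 in Bonn, and Hamburg had 28.1, 20.1 and 27.3, so that cortex was the highest compartment in each dataset. Vhl had -0.39 ± 0.26 and Pdk1 -0.21 ± 0.35, each below 0 in 3 datasets. By role, 7 of 14 glycolytic enzymes were above 0 in resident macrophages with a median of -0.005, 2 of 5 oxygen sensing genes with a median of -0.20, and 2 of 3 transporters with a median of 0.077. Hif1a itself was 33.0, 25.1 and 8.84 CPM in Aachen, 59.3, 56.0 and 48.6 in Bonn, and Hamburg had 66.4, 58.4 and 80.2, with no common order of compartments.

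**Figure D5:**
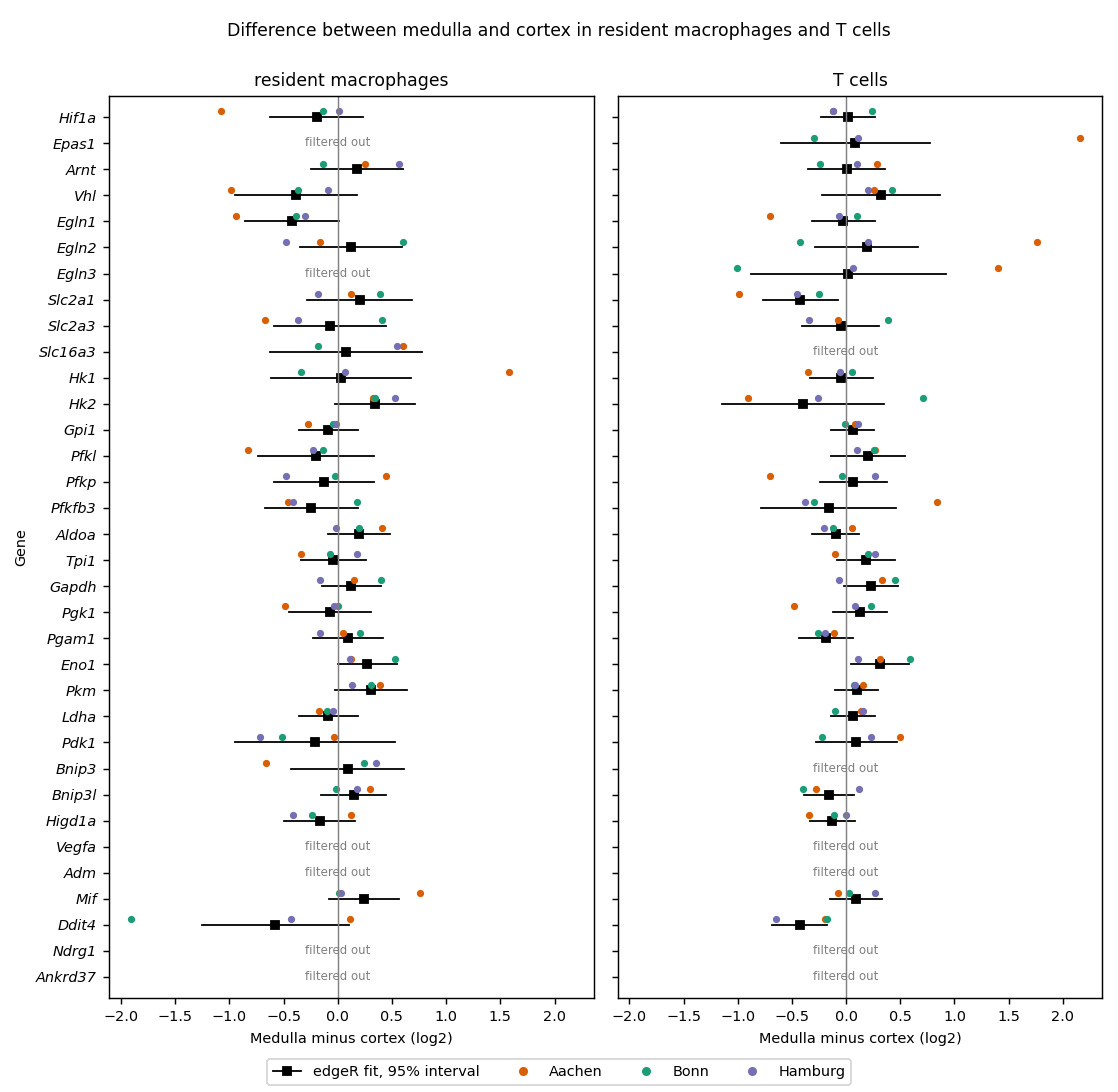
Log2 difference of medulla minus cortex with its 95% interval for the tested members in resident macrophages and T cells, ordered by role; small points are the 3 datasets. The intervals of 27 of 28 members in each class lie within 1 log2 unit of 0. In resident macrophages Hk2, Pkm and Eno1 lie to the right, and Ddit4, Egln1 and Vhl to the left, with Ddit4 the farthest.

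In T cells, Ddit4 had the lowest difference of the members. It was 80.6, 61.7 and 74.8 CPM in Aachen, 75.7, 68.5 and 64.6 in Bonn, and Hamburg had 130.1, 74.6 and 88.3, so that cortex was the highest compartment in 3 of 3 datasets. The log2 difference was -0.43 ± 0.12 (95% interval -0.68 to -0.18, adjusted p = 0.447 by edgeR), with -0.20, -0.18 and -0.64. NK cells had -0.61 ± 0.20 (adjusted p = 0.764 by edgeR), from 181, 100.2 and 124 CPM in Hamburg and 64.6, 47.1 and 52.3 in Bonn, while the Aachen difference was -0.04. B cells had -0.40 ± 0.18, with Aachen above 0. Of the 6 classes in which Ddit4 was tested, 4 lay below 0 and 2 above. Resident macrophages had -0.58, the lowest of their members, without 1 direction in the 3 datasets. Monocytes had 0.44 ± 0.38 (-3.51, 0.23 and 0.75 by dataset). The immediate early and heat shock list summed in T cells to 125, 78.7 and 103 UMIs per 10000 in Aachen, 19.9, 37.6 and 45.7 in Bonn, and Hamburg had 223, 202 and 169. That list was thus highest in cortex in Aachen and Hamburg, like Ddit4, and lowest there in Bonn. Its part in the difference of Ddit4 was not tested.

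Slc2a1 in T cells had a log2 difference of -0.42 ± 0.16 (adjusted p = 0.789 by edgeR), below 0 in 3 datasets (-0.99, -0.25 and -0.45), with 28.6, 22.8 and 24.7 CPM in Bonn, and Hamburg had 45.7, 29.3 and 35.7. In cDCs, Slc2a1 had 0.94 ± 0.33 (adjusted p = 0.208 by edgeR) and did not move the same way in each dataset (-0.75, 1.52 and 0.34). Its cDC2 cluster gave 0.44 ± 0.40. Hk2 in cDCs likewise had 0.62 ± 0.24 with 1.70, 0.36 and -0.12 by dataset. Further T cell genes with 1 direction in 3 datasets were Vhl (0.32 ± 0.26), Pfkl (0.20 ± 0.16) and Pgam1 (-0.18 ± 0.12).

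In monocytes, Mif had -0.46 ± 0.23 (-0.15, -0.69 and -0.20 by dataset), Vhl -0.88 ± 0.48, Egln2 -0.38 ± 0.37 and Arnt 0.58 ± 0.36, all with an adjusted p of 0.999 by edgeR. Mif was 142, 139 and 116 CPM in Aachen, 113, 76.2 and 60.4 in Bonn, and Hamburg had 98.04, 80.3 and 92.3, with cortex highest in each dataset. Aachen held 28 to 32 monocytes per library, and the 47.2 CPM of Vhl in the Aachen cortex rest on 3 UMIs. In cDCs, Slc2a3 (0.45 ± 0.41) and Arnt (0.33 ± 0.31) were above 0 and Ndrg1 (-0.37 ± 0.30), Pfkp (-0.34 ± 0.23) and Ldha (-0.18 ± 0.12) below 0 in 3 datasets. NK cells had Egln1 (0.28 ± 0.29) and Bnip3l (0.11 ± 0.17) above 0 and Pgk1 (-0.31 ± 0.23) and Higd1a (-0.11 ± 0.16) below 0. None of these passed the test.

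B cells had small differences in the same direction in 3 datasets for Ankrd37 (0.16 ± 0.21), Arnt (0.06 ± 0.17), Bnip3 (-0.23 ± 0.28), Hif1a (-0.17 ± 0.16) and Pfkp (-0.15 ± 0.21). Adm had -1.06 ± 0.49 in B cells, from 44.6, 9.34 and 17.0 CPM in Hamburg, but Bonn was above 0 (0.17). Malat+ macrophages had Aldoa at 0.65 ± 0.26 (0.44, 0.82 and 0.35 by dataset, adjusted p = 0.712 by edgeR), Pkm at 0.24 ± 0.28 and Gpi1 at -0.58 ± 0.25 (-0.35, -0.61 and -0.51, adjusted p = 0.785 by edgeR). Aldoa of these cells was 207, 253 and 207 CPM in Aachen, 199, 399 and 298 in Bonn, and Hamburg had 113, 181 and 137, where OM was the highest compartment each time. The Bonn OM library of Malat+ macrophages held 20 cells.

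Whether the medullary difference of a member depends on the class was tested as an interaction of resident macrophages with 5 other classes. No member passed against monocytes (30 tested), cDCs (30), NK cells (29), T cells (30) or B cells (31) by edgeR, and 0, 0, 1, 0 and 0 had an unadjusted p under 0.05. Among all genes 0.152%, 0.0777%, 0.0112%, 0% and 0.0206% passed in the same order. Vhl, with -0.39 in resident macrophages and 0.32 in T cells when each class was fitted alone, had an interaction of -0.62 ± 0.35 (adjusted p = 1 by edgeR). Mif, with 0.24 in resident macrophages and -0.46 in monocytes, had an interaction of 0.60 ± 0.34 (adjusted p = 1 by edgeR).

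Since the mix of clusters in a class differs between compartments, the medulla was compared with the cortex also within the 9 clusters that had at least 20 cells in each library. Of 183 pairs of a member and a cluster, none passed by edgeR and 9 had an unadjusted p under 0.05. Among all genes the share that passed was 0.559% in Macrophage_1, 0.0898% in Macrophage_2, 0.293% in cDC2, 0.192% in T_cell_1, 0.019% in T_cell_2, 0% in T_cell_3 and 0.037% in B_cell_1. The differences of Pkm, Hk2 and Eno1 in resident macrophages did not keep 1 direction in the datasets within both Macrophage_1 (1996 cells) and Macrophage_2 (1680). The third large cluster, Macrophage_3 (1418 cells), was not among the 9, so that these differences were not compared within it. Pkm was 0.44 ± 0.19 in Macrophage_1 (0.38, 0.64 and 0.22 by dataset) and 0.084 ± 0.15 in Macrophage_2 (-0.01, 0.17 and -0.04). Hk2 was 0.23 ± 0.31 in Macrophage_1 (0.21, 0.94 and -0.16) and 0.23 ± 0.28 in Macrophage_2 (0.34, -0.17 and 1.68). Eno1 was 0.06 ± 0.21 in Macrophage_1 (0.23, -0.20 and -0.08) and 0.25 ± 0.20 in Macrophage_2 (-0.28, 0.50 and 0.62). T cell clusters had Eno1 at 0.42 in T_cell_1 (adjusted p = 0.404 by edgeR), 0.21 in T_cell_2 and 0.23 in T_cell_3. Slc2a1 was -0.70 in T_cell_1 and -0.38 in T_cell_2 (-0.87, 0.63 and -0.69 by dataset). Ddit4 was -0.28 ± 0.15 in T_cell_1 (0.04, -0.04 and -0.54) and -0.49 ± 0.19 in T_cell_2 (0.02, -0.73 and -0.53). For Ddit4 in both clusters and for Slc2a1 in T_cell_2, 1 dataset thus lay above 0.

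Other genes of the same pathways, from lists that do not overlap the 34, gave no call either. Of 21 further glycolysis genes, such as Hk3, Eno2 and Ldhb, 0 to 6 were tested per class. Of 35 further HIF pathway genes, such as Hif1an, P4ha1 and Cxcr4, 8 to 21 were tested, and of 19 nuclear genes of oxidative phosphorylation, such as Ndufs1 and Cox4i1, 16 to 19. None passed in either direction, in any class or contrast, by edgeR. The median differences of medulla and cortex over the classes were -0.33 to 0.10, -0.05 to 0.25 and -0.13 to 0.03 for the 3 lists. Members with ACGTG in the promoter window had a median difference of 0.084 in resident macrophages (14 genes) and those without it -0.065 (12 genes), while in T cells the order was reversed with -0.025 (13 genes) and 0.092 (12 genes). These medians were not tested.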

How the data were processed

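The deposited table holds 1 value per gene and cell with the cluster, compartment and dataset of each of 20266 cells. Alignment with Cell Ranger to mm10, filtering and clustering with Seurat are the work of the authors. The deposited values are estimated counts of UMIs that were not scaled to library size: of the values above 0, all are exactly whole in Aachen and Bonn and 0.113 to 0.124% per library in Hamburg. What made the Hamburg values fractional, such as a correction for free RNA, is not given in the sources used here, so that Hamburg levels and zeros may not be directly comparable with the others. No correction for free RNA and no doublet caller was applied here.

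Values were summed per library and class, rounded, filtered with filterByExpr, scaled by TMM and fitted with glmQLFit and tested with glmQLFTest (edgeR 4.0.16 in R 4.3.3), taking datasets as blocks, also for NK cells, whose Bonn OM library holds 19 cells. Differences per dataset are log2 CPM with a prior count of 2. The block was checked on deviations from compartment means, which correlate at 0.70 to 0.92 within a dataset and at -0.84 to 0.59 between datasets, over T cells, B cells and resident macrophages. DESeq2 1.42.0 was the alternative test. Tested on simulated data of these libraries, edgeR recovered 78% of 2-fold and 97% of 4-fold changes of resident macrophages, and for Malat+ macrophages 43 and 89%. The 200 changed genes per class were drawn above a minimum mean count, so that sparse genes are not covered. Unchanged genes were also called, 17 in resident macrophages, 7 in Malat+ macrophages, 4 in monocytes and 26 in B cells. Limits for a count of 0 are 3 counts of the class's UMIs and cover counting error only.

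The genes named per class are up to 3 per direction with the largest difference among those that moved 1 way in 3 datasets, with exceptions stated. The members and lists were chosen with earlier results of these data known. Alternatives comprised another normalization, no filter, no block, leaving out datasets or 2 libraries, thinning to 500 UMIs per cell, rounding up per cell, and leaving out the cluster Macrophage_3 or the 720 cells with at least 2 nephron UMIs. Promoter sequences came from RefSeq.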

Additional observations from a re-analysis of the deposited data

Results flagged for a closer look

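For 5 pairs of classes, the medulla lay above the cortex in 3 of 3 datasets in 1 class and below it in 3 of 3 datasets in the other, and the difference between the classes was not tested. Vhl differed by -1.20 on the log2 scale between monocytes (-0.88) and T cells (0.32), and Pfkl by -0.49 between monocytes (-0.29) and T cells (0.20). Pkm differed by 0.12 between T cells (0.10) and B cells (-0.03) and by -0.26 between B cells and Malat+ macrophages (0.24). Bnip3l differed by 0.22 between NK cells (0.11) and B cells (-0.11). None of these differences of a gene in its class passed the test by edgeR. Of the opposite pairs that were tested as an interaction, resident macrophages minus the other class, Vhl with T cells (-0.62), Egln1 with NK cells (-0.64), Pfkl with T cells (-0.46), Pkm with B cells (0.31) and Mif with monocytes (0.60) each had an adjusted p of 1 by edgeR.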

How the results depend on the processing

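Over 13 alternatives, 337 of 340 counts of members past the threshold were 0, as in the main analysis, among them all counts by DESeq2, without the replicate block (0 in every class and contrast) and with a dataset left out (0 to 0). The other 3 were 1 each, with no filter on low counts: Eno1 in cDCs for medulla against cortex (log2 difference 0.57, adjusted p = 0.0346 by edgeR) and for OM against cortex, and Ddit4 in T cells for medulla against cortex (-0.47, adjusted p = 0.0415 by edgeR). The cause was not tested. Of 397 recomputed differences of the 36 named pairs of a gene and a class, 395 kept their direction. The exceptions arose with each cell thinned to 500 UMIs, where Bnip3l in NK cells became -0.18 and Higd1a in NK cells 0.022, and only 12 of the 36 pairs could still be tested there. No scaling moved the median of all genes by more than 0.1. Scaling levels by TMM over all classes kept the class with the highest median for 22 of 34 genes, and thinning for 24, with 10 and 7 levels moved by more than 1 SD. Depth limits sparse genes such as Epas1, Egln3 and Adm: a count of 0 allows 0.80 to 4.42 CPM in resident macrophages and 13.7 to 56.6 CPM in ILC2.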
